A study of Homo sapiens with 15 samples.

Results

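The miR-200 family was followed through small RNA libraries of a human embryonic kidney cell line. All rows named for miR-200a, miR-200b, miR-200c, miR-141 or miR-429 were taken, which gave 9 of the 2424 mature miRNAs in the counts: 5 from the 3p side of the hairpin, with miR-429 counted there, and 4 from the 5p side. The cells were derivatives of HEK293, used without induction and named FTO1C1, FTO2D4 and FTO3C3. Each is a clonal line, so that the replicates of a group are 3 clones with 1 library each. Groups were compared within clones, with the 3 clones as replicates. The p-values of the count model (edgeR) use a spread between clones that is estimated partly from all tested miRNAs. A small edgeR p-value is therefore not a measure of how well the 3 clones agree for 1 miRNA. In the knockdown, the clones were transfected with 10 nM of FTO siRNA (3 libraries) or scrambled siRNA (3 libraries) and harvested after 48 h. FTO removes the methyl group from N6-methyladenosine (m6A) in RNA. In the second experiment, RNA of the same 3 clones without siRNA was precipitated with an anti-m6A antibody (m6A precipitate, 3 libraries) or with isotype control IgG (IgG precipitate, 3 libraries), or sequenced without precipitation (input, 3 libraries). The 2 experiments address whether loss of the demethylase shifts the level of a miRNA and whether the anti-m6A antibody collects it. FTO itself is not among the miRNA counts, and its knockdown was not checked here.

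The members of the family are abundant in epithelial cells, where they hold back the transcription factors ZEB1 and ZEB2. These factors repress E-cadherin and, in turn, the family's own genes, and loss of the family is a known mark of the epithelial to mesenchymal transition. A miRNA recognises its targets mainly through its seed, the bases 2 to 8 counted from the 5′ end, so members that share a seed share most predicted targets. The strand from the 3p side of these hairpins is the one usually loaded into the silencing complex, and the 5p strand is usually the less abundant passenger strand.

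The family comes from a pair of gene clusters. In GRCh38.p14, the mature miR-200b, miR-200a and miR-429 lie within 1953 bp of chromosome 1, from 1167124 to 1169076 on the plus strand, within the non-coding host gene MIR200BHG. The mature miR-200c and miR-141 lie within 474 bp of chromosome 12, from 6963703 to 6964176 on the plus strand, within MIR200CHG. RefSeq held mature sequences of 8 of the 9 members, and hsa-miR-141-5p is named only. The sequences are shown because members that share a seed are compared with each other, with the seed in capitals and bases written from 5′ to 3′. The first 3 share the seed AAUACUG, the next pair the seed AACACUG, and these 2 seeds differ at 1 base. Of the 5p arms, miR-200b-5p and miR-200a-5p share AUCUUAC, and miR-200c-5p carries GUCUUAC.
hsa-miR-200b-3p: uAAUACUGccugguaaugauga
hsa-miR-200c-3p: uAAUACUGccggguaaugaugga
hsa-miR-429: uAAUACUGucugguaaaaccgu
hsa-miR-141-3p: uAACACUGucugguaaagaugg
hsa-miR-200a-3p: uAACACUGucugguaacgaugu
hsa-miR-200b-5p: cAUCUUACugggcagcauugga
hsa-miR-200a-5p: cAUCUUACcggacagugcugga
hsa-miR-200c-5p: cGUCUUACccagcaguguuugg

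From the clusters on different chromosomes, miR-200b-3p and miR-200c-3p are close copies. Counted from the 5′ end with miR-200b-3p first, they differ by U11G and A22G over 22 bases, and miR-200c-3p has 1 base more at its 3′ end. The authors assigned reads by exact matches of at least 7 bases that together cover at least 17. Of 28 pairs of members with a sequence, miR-200b-3p and miR-200c-3p were the 1 pair whose full sequences met this rule against each other, with 20 bases covered. Where several miRNAs met it, the authors took the one with the most matching bases, and a full read of either matches its own entry best. By contrast, miR-141-3p and miR-200a-3p (A17C and G22U) shared 16 covered bases, and miR-200b-3p and miR-429 shared 15. Whether shortened or mistaken reads were given to the wrong copy was not tested.

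The letters around a possible m6A also differ between the members. AAC or GAC, read on the miRNA strand alone, occurs in 36.1% of the 2370 human mature miRNAs of the table, and in 4 of the 8 members: miR-429 from position 17, miR-200a-5p from position 11, miR-141-3p from position 2 and miR-200a-3p from positions 2 and 15. RRACH, a longer form that contains AAC or GAC and is known from m6A in mRNA, occurs in 20.7%, and among the members in miR-429 and miR-200a-5p. Neither occurs in miR-200b-3p or miR-200c-3p. These are matches of letters, and which adenosines were methylated was not measured.

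The libraries held 1991317 to 3876806 miRNA reads in the knockdown, 1408702 to 1500357 in the inputs, 569501 to 4973238 in the m6A precipitates and 186446 to 786688 in the IgG precipitates. Levels are given as RPM, the reads of a miRNA per 1000000 miRNA reads of its library. The IgG library of FTO3C3 was the shallowest, and 3 reads in it equal 16.1 RPM. A single miRNA, miR-6080, took 41.3% to 47.8% of the reads of the m6A precipitates, 58.0% to 71.6% of the IgG precipitates and 15.5% to 28.4% of the inputs, which sets the scale of all RPM values in that experiment. Markers of other cell types (erythroid, leukocyte, hepatocyte, endothelial, stromal, muscle and neuronal miRNAs, 14 in the list) summed to 285 to 427 RPM with scrambled siRNA (13 listed), 364 to 499 RPM with FTO siRNA, 666 to 1159 RPM in the inputs (11 listed), 1224 to 2424 RPM in the m6A precipitates and 259 to 343 RPM in the IgG precipitates. Of the leukocyte-linked miRNAs, miR-223-3p had 584 ± 214 RPM (SD, n = 3) in the inputs, and miR-142-3p (13.4 ± 6.43 RPM), miR-142-5p (16.4 ± 4.47 RPM) and miR-150-5p (4.29 ± 2.66 RPM) were far lower. All libraries come from clones derived from HEK293, and where the reads of these miRNAs come from was not tested. The part of such miRNAs in the results below was not tested.

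In cells with scrambled siRNA, the family summed to 633 ± 117 RPM (SD, n = 3), and 81.4% of that mean carried the AAUACUG seed. The members fell into steps. At the top, miR-200b-3p had 436 RPM in FTO1C1, 282 in FTO2D4 and 413 in FTO3C3, which placed it 162nd by mean among 2418 miRNAs. Its chromosome 12 relative miR-200c-3p had 137, 105 and 160 RPM in the same order, below miR-200b-3p in each clone. Below both lay miR-141-3p with 52.5, 54.8 and 46.7 RPM and miR-200b-5p with 23.9, 30.0 and 52.2 RPM, whose ranges overlap. The next was miR-141-5p at 14.2 ± 0.937 RPM, followed by miR-200a-5p (9.66 ± 5.99 RPM), miR-200c-5p (5.77 ± 1.14 RPM), miR-429 (4.31 ± 3.22 RPM) and miR-200a-3p (1.76 ± 0.215 RPM). The range of miR-141-5p (13.2 to 15.1 RPM) lies inside that of miR-200a-5p (6.09 to 16.6 RPM). Of the last 4, miR-200a-5p, miR-200c-5p and miR-429 overlap in their ranges, and miR-200a-3p rested on 4 to 6 reads per library. All sequenced members have 22 or 23 bases, so RPM compares them on about equal length, although ligation efficiency can differ between miRNAs.

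Members made from 1 cluster were thus unequal. On chromosome 1, the mean of miR-200b-3p was 377 RPM against 4.31 RPM for miR-429 and 1.76 RPM for miR-200a-3p, each in scrambled siRNA libraries. On chromosome 12, miR-200c-3p stood at 134 RPM and miR-141-3p at 51.3 RPM. By the study's threshold of 15 RPM or more in each scrambled siRNA library, 4 of 9 members counted as expressed (miR-200b-3p, miR-200c-3p, miR-141-3p and miR-200b-5p), against 42.7% of all 2418 miRNAs. This threshold and the ratio rules below were applied as the paper's methods are read here. The numbers of miRNAs that pass differ from those the paper reports.

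**Figure D1:**
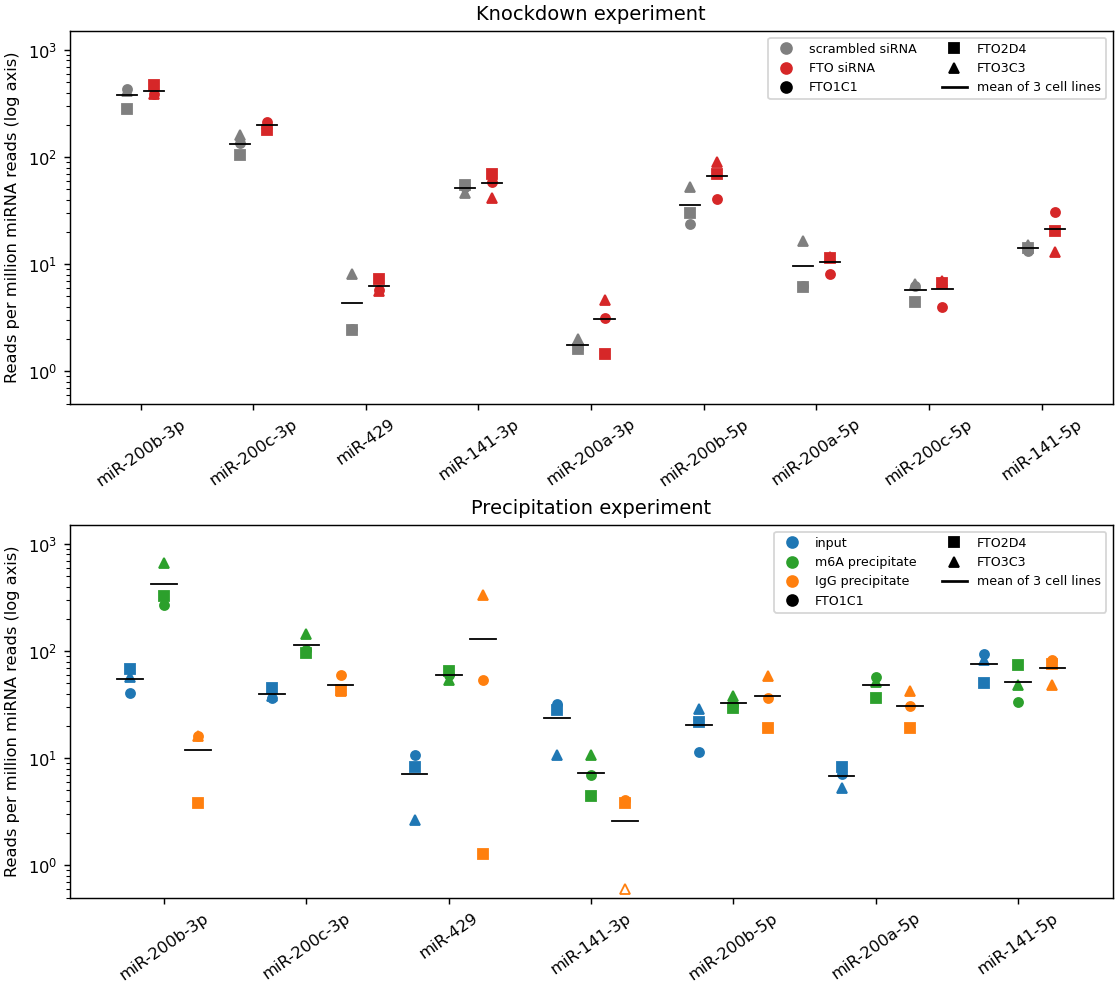
Level of each member by library, in RPM on a log axis, for the knockdown (top) and the precipitation (bottom). Symbols are the 3 clones, colours the groups and bars the means; the open symbol at the lower edge marks miR-141-3p at 0 reads in the IgG library of FTO3C3. The m6A values of miR-200b-3p, 269 to 666 RPM, lie far above its IgG values of 3.81 to 16.2 RPM, while the 3 IgG values of miR-429 spread from 1.27 to 333 RPM.

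The inputs of the second experiment showed another composition. There the family summed to 230 ± 3.27 RPM, and miR-141-5p was the highest member at 76.1 ± 22.7 RPM, followed by miR-200b-3p at 55.4 ± 14.1 RPM and miR-200c-3p at 39.8 ± 4.77 RPM. The ranges of miR-141-5p (50.7 to 94.4 RPM) and miR-200b-3p (40.5 to 68.5 RPM) overlap, as do those of miR-200b-3p and miR-200c-3p (36.2 to 45.2 RPM). The inputs had 23.6 ± 11.3 RPM of miR-141-3p, 20.6 ± 8.72 RPM of miR-200b-5p, 7.18 ± 4.09 RPM of miR-429 and 6.88 ± 1.46 RPM of miR-200a-5p. Both miR-200a-3p and miR-200c-5p have no row in the counts of this experiment, where the lowest listed miRNA had 82 reads over all 9 libraries. The 2 experiments were prepared separately, and no test was made between their levels. In the m6A precipitates the order was miR-200b-3p (421 ± 214 RPM), miR-200c-3p (114 ± 26.1 RPM), miR-429 (59.5 ± 5.91 RPM), miR-141-5p (52.0 ± 21.1 RPM), miR-200a-5p (48.7 ± 10.9 RPM), miR-200b-5p (33.0 ± 4.49 RPM) and miR-141-3p (7.36 ± 3.14 RPM). From miR-429 to miR-200b-5p, neighbours in this order overlap in their ranges. In the IgG precipitates it was miR-429 (129 ± 178 RPM), miR-141-5p (68.9 ± 18.1 RPM), miR-200c-3p (48.5 ± 9.40 RPM), miR-200b-5p (38.2 ± 20 RPM), miR-200a-5p (31.0 ± 11.9 RPM), miR-200b-3p (12 ± 7.12 RPM) and miR-141-3p (2.62 ± 2.27 RPM). Down to miR-200a-5p, neighbours in the IgG order overlap, while miR-200b-3p (up to 16.2 RPM) lay under the lowest miR-200a-5p value of 19.1 RPM.

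After FTO siRNA, miR-200b-5p was the 1 member called: it rose in all 3 clones, to 67.2 ± 24.7 RPM from 35.4 ± 14.9 RPM. The family sum was 788 ± 47.7 RPM after FTO siRNA against 633 ± 117 RPM. Of the 8 members tested, 1 was higher and 0 were lower by edgeR's quasi-likelihood test (adjusted p under 0.05), against 4.97% higher and 0.505% lower among all 2374 miRNAs tested. At an unadjusted p under 0.05, miR-200c-3p was also higher, as were 568 of all 2374 miRNAs. Over all miRNAs the median log2 fold change was 0.29, so that most miRNAs read slightly higher with FTO siRNA on this scale. The median of the 8 members was 0.38.

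For miR-200b-5p, the passenger strand of miR-200b, FTO siRNA libraries had 41.1 RPM in FTO1C1, 70.2 in FTO2D4 and 90.3 in FTO3C3, and scrambled siRNA libraries had 23.9, 30.0 and 52.2 RPM. The groups overlap, but every clone was higher with FTO siRNA, by 1.72, 2.34 and 1.73 times. Its log2 fold change was 0.93 (SE 0.20, edgeR adjusted p = 0.0323, n = 3). This call was lost with scaling by TMM factors (log2 fold change 0.64, edgeR adjusted p = 0.108), with DESeq2 (adjusted p = 0.111), without the clone as a block (adjusted p = 0.158), without FTO1C1 (adjusted p = 0.234) and without FTO2D4 (adjusted p = 0.116); over all alternatives the adjusted p lay between 0.0249 and 0.234 and the log2 fold change between 0.64 and 1.00.

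Next came miR-200c-3p, with 215, 179 and 206 RPM after FTO siRNA in FTO1C1, FTO2D4 and FTO3C3 against 137, 105 and 160 RPM with scrambled siRNA. These groups do not overlap, and the ratios were 1.57, 1.71 and 1.29. The log2 fold change of 0.60 (SE 0.17) missed the threshold (edgeR adjusted p = 0.0656), and was past it without FTO3C3 (adjusted p = 0.0404) and with totals that leave out the most abundant miRNA (adjusted p = 0.0437). With TMM factors and DESeq2 the log2 fold change was 0.31 and 0.30 (adjusted p = 0.343 and 0.383), and the adjusted p was 0.350 without FTO1C1, 0.278 without FTO2D4 and 0.158 without the clone as a block. Its close copy miR-200b-3p had 388, 476 and 387 RPM against 436, 282 and 413 RPM. It was lower in FTO1C1 and FTO3C3 and higher in FTO2D4, and its log2 fold change of 0.16 (SE 0.20, edgeR adjusted p = 0.623) turned to -0.13 with TMM factors. The difference between the 2 log2 ratios was -0.43 ± 0.40 (SD, n = 3, exact sign-flip p = 0.25, the smallest that 3 clones allow), with miR-200b-3p below miR-200c-3p in all 3. Of 36 pairs of members compared in the knockdown, this was among only 9 with the same sign in all 3 clones.

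The other members were not called. For miR-141-5p, the ratios were 2.33, 1.44 and 0.873 (log2 fold change 0.58, SE 0.27, edgeR adjusted p = 0.199), and without FTO3C3 it passed with an adjusted p of 0.0487. The log2 fold change of miR-141-5p was 0.19 without FTO1C1 (edgeR adjusted p = 0.771) and 0.29 with TMM factors (adjusted p = 0.630). In miR-429 the ratios of 2.32, 2.96 and 0.706 rested on 6 to 25 reads per library (edgeR adjusted p = 0.354). The log2 fold changes of miR-141-3p (0.13), miR-200a-5p (0.18) and miR-200c-5p (-0.01) were within 1 SE of 0, and the first 2 turned negative with TMM factors (-0.17 and -0.10). With 4 to 18 reads per library, miR-200a-3p did not pass the filter on low counts, and its ratios were 1.92, 0.889 and 2.31. By the study's ratio rule, 2 members exceeded a mean ratio of 1.5 (miR-200b-5p at 1.93 and miR-200c-3p at 1.52), against 11% of 2418 miRNAs, and 0 exceeded 2.

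**Figure D2:**
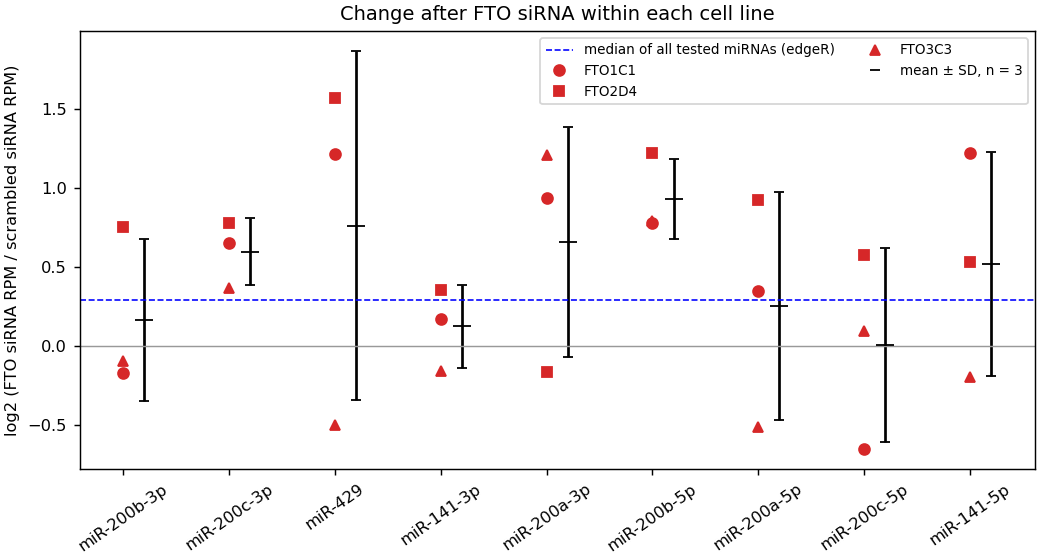
Log2 ratio of RPM with FTO siRNA to RPM with scrambled siRNA within each clone, for the 9 members; black bars are mean ± SD (n = 3) and the dashed line is the median of all tested miRNAs, 0.29. In miR-200b-5p and miR-200c-3p all 3 clones lie above 0; miR-200b-3p, miR-141-3p and miR-200a-5p have clones on both sides, and their fitted changes are negative with TMM scaling.

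Since both strands of a hairpin are measured in the same library, their ratio does not depend on the scaling. For miR-200b, the log2 ratio of 3p to 5p reads fell from 3.46 ± 0.64 with scrambled siRNA to 2.70 ± 0.57 with FTO siRNA, a difference of -0.76 ± 0.26 that was negative in 3 of 3 clones (exact sign-flip p = 0.25, the smallest possible). For miR-200c the ratio went the other way, by 0.61 ± 0.59, also in 3 of 3 clones (exact p = 0.25). The miR-141 (-0.39 ± 0.57, exact p = 0.5) and miR-200a (0.35 ± 1.36, exact p = 0.75) hairpins had clones on both sides of 0. In miR-200a the 5p strand led in both groups, with log2 ratios of -2.18 ± 0.62 (scrambled siRNA) and -1.83 ± 0.91 (FTO siRNA). The miR-200a-3p counts behind them were 4 to 18 reads per library. The strand pairs of miR-200b and miR-200c belong to the 9 of 36 member pairs with the same sign in all 3 clones. With 3 clones the sign-flip test cannot go below 0.25, and the values are given as a description.

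The precipitation separated the members far more. Against IgG, miR-200b-3p was strongly enriched with the anti-m6A antibody, miR-200c-3p slightly, and the other members were not called. Of the 6 members tested, 2 were higher and 0 lower, against 38.6% higher and 1.27% lower among the 2054 miRNAs tested. The median of the 6 members was 0.43 on the log2 scale, and that of all tested miRNAs 0.83.

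The m6A precipitates held 153, 448 and 3312 reads of miR-200b-3p in FTO1C1, FTO2D4 and FTO3C3, and the IgG precipitates 12, 3 and 3 reads. In RPM these are 269, 329 and 666 with the anti-m6A antibody against 16.2, 3.81 and 16.1 with IgG, with a wide gap between the groups. The ratio was 16.6 in FTO1C1 (exact 95% counting interval 9.23 to 32.8), 86.2 in FTO2D4 (29.3 to 420) and 41.4 in FTO3C3 (14.2 to 201); these intervals cover counting error only, and reads without molecular identifiers are not independent molecules. The log2 fold change was 5.09 (SE 0.49, edgeR adjusted p = 6.00e-05), and it lay between 4.34 and 5.92 and stayed past the threshold under all 9 alternatives. Of all tested miRNAs, 97.2% had a lower log2 fold change. By the study's rule of at least 100 RPM in the m6A libraries and a mean ratio of at least 2 over IgG, miR-200b-3p was the 1 member that passed, against 11.8% of 2189 miRNAs.

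For miR-200c-3p, the m6A precipitates had 102, 96.1 and 144 RPM and the IgG precipitates 59.3, 43.2 and 42.9 RPM. The groups do not overlap, and the ratios were 1.72, 2.22 and 3.36 (log2 fold change 1.18, SE 0.35, edgeR adjusted p = 0.0259). With TMM factors the log2 fold change was 0.42 and the call was lost (edgeR adjusted p = 0.372), and on the original scale 59.8% of tested miRNAs had a lower value. It failed the 100 RPM rule by FTO2D4 alone. Although miR-200b-3p and miR-200c-3p share their seed and 20 of their first 22 bases, the log2 ratio of m6A to IgG was higher for miR-200b-3p by 3.22, 5.07 and 3.49 in the 3 clones (mean 3.93 ± 1.00, exact sign-flip p = 0.25, the smallest possible). Most of this gap came from the IgG side: relative to input, the IgG log2 ratio of miR-200b-3p was lower than that of miR-200c-3p by a mean difference of -2.59 ± 1.14, and the m6A log2 ratio was higher by 1.34 ± 0.24, each in 3 of 3 clones. Any exchange of reads between these copies was not measured.

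The third miRNA with this seed, miR-429, gave no steady value against IgG. Its m6A precipitates were even, at 59.7, 65.3 and 53.5 RPM, but its IgG precipitates held 40, 1 and 62 reads, or 53.9, 1.27 and 333 RPM. The IgG value was thus below the m6A value in FTO2D4, above it in FTO3C3 and near it in FTO1C1. The ratio to IgG was 1.11 in FTO1C1 (exact 95% counting interval 0.679 to 1.79), 51.4 in FTO2D4 (8.99 to 2052, with 1 IgG read) and 0.161 in FTO3C3 (0.122 to 0.216). The log2 fold change of 0.13 had an SE of 1.10 (edgeR adjusted p = 0.940) and turned negative under 6 of 9 alternatives, TMM factors included.

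The members that remain had few reads or lay below the median of all miRNAs against IgG. The m6A precipitates had 7.02, 4.40 and 10.7 RPM of miR-141-3p, from 4, 6 and 53 reads, and the IgG precipitates 3, 3 and 0 reads. It did not pass the filter on low counts, and the ratios in FTO1C1 and FTO2D4, 1.74 and 1.15, had exact 95% counting intervals of 0.294 to 11.9 and 0.247 to 7.13. No ratio is given for FTO3C3, where the m6A level lay under the 16.1 RPM that 3 IgG reads would make. For the 5p strands tested, the log2 fold changes were 0.73 for miR-200a-5p (edgeR adjusted p = 0.149, and -0.02 with TMM factors), -0.06 for miR-200b-5p (adjusted p = 0.918) and -0.44 for miR-141-5p (adjusted p = 0.398). With TMM factors miR-141-5p was called lower, at -1.20 (edgeR adjusted p = 0.0350).

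**Figure D3:**
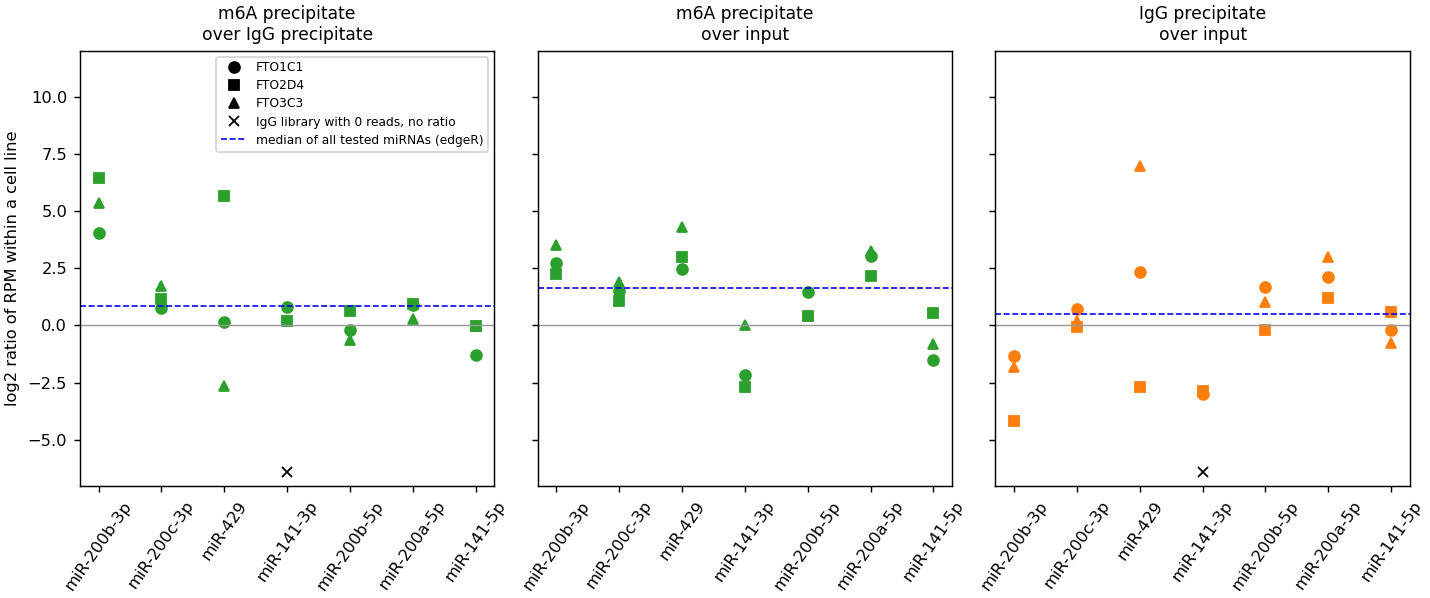
Log2 ratio of RPM within each clone, for m6A over IgG precipitate, m6A precipitate over input and IgG precipitate over input; symbols are clones, and the dashed line is the median of all tested miRNAs (0.83, 1.65 and 0.49). The black cross marks the IgG library with 0 reads of miR-141-3p, for which no ratio exists. In the first panel miR-200b-3p stands above 4 in all clones, while miR-429 spreads over both sides of 0; with TMM scaling, the fitted values of miR-200c-3p and miR-200b-5p for m6A precipitate over input, and that of miR-200c-3p for IgG precipitate over input, are negative.

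Measured against input, the division in the m6A precipitates was between miR-200b-3p, miR-429 and miR-200a-5p on one side and the miR-141 strands on the other. The control IgG against input went the same way for miR-429, miR-200a-5p and miR-141-3p (log2 fold changes 2.76, 2.03 and -2.98). It went the opposite way for miR-200b-3p (-2.32). Against IgG, neither miR-429 nor miR-200a-5p was called in the m6A precipitates. Of 7 members tested, 4 were higher and 1 lower in the m6A precipitate, against 66.8% higher and 10.5% lower among the 2174 miRNAs tested. A call of higher was thus the common outcome on this scale, where the median log2 fold change was 1.65. With TMM factors this median was 0.10.

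In the m6A precipitate miR-429 rose from 10.6, 8.22 and 2.67 RPM in the inputs to 59.7, 65.3 and 53.5 RPM, by 5.61, 7.94 and 20.1 times. The input values rest on 15, 12 and 4 reads. Its log2 fold change was 3.15 (SE 0.44, edgeR adjusted p = 4.98e-07), or 1.5 above the median of all miRNAs. The rise of miR-200b-3p was from 40.5, 68.5 and 57.3 to 269, 329 and 666 RPM (log2 fold change 2.84, SE 0.43, edgeR adjusted p = 1.32e-06). In miR-200a-5p, it was from 7.10, 8.22 and 5.33 to 57.9, 36.7 and 51.5 RPM (log2 fold change 2.80, SE 0.42, edgeR adjusted p = 1.23e-06). The groups do not overlap for any of these 3, and their calls held with TMM factors (log2 fold changes 1.62, 1.30 and 1.26, edgeR adjusted p = 0.00408, 0.00549 and 0.0116).

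For 2 members the direction changed with the scaling. For miR-200c-3p, the log2 fold change of 1.5 (edgeR adjusted p = 0.00165) lay 0.15 below the median of all miRNAs and was -0.05 with TMM factors. For miR-200b-5p, it was 0.70 (edgeR adjusted p = 0.0948) and -0.88 with TMM factors (adjusted p = 0.0569).

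The miR-141 strands lay lowest. In miR-141-3p, the m6A precipitates had 7.02, 4.40 and 10.7 RPM against 31.9, 28.1 and 10.7 RPM in the inputs, by ratios of 0.220, 0.157 and 0.999. It fell with a log2 fold change of -1.42 (SE 0.49, edgeR adjusted p = 0.0105), and 7.04% of all tested miRNAs lay lower. The ratio in FTO3C3 was near 1, and the call was lost without FTO2D4 (log2 fold change -0.87, adjusted p = 0.221) and with totals that leave out miR-6080 (adjusted p = 0.0724); with TMM factors the value was -2.95. In miR-141-5p the ratios were 0.353, 1.48 and 0.574 (log2 fold change -0.55, edgeR adjusted p = 0.25), and with TMM factors it was called lower at -2.11 (adjusted p = 0.00333).

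These contrasts between members do not depend on the scaling, since both are read in the same library. The log2 ratio of m6A precipitate to input was higher for miR-200b-3p than for miR-141-3p by 4.75, 4.83 and 3.56 in the 3 clones (mean 4.38 ± 0.71). It was higher for miR-429 than for miR-141-3p by 4.73 ± 0.69, also in 3 of 3 clones. With the control IgG against input, miR-429 also exceeded miR-141-3p in 3 of 3 clones, by 4.81 ± 4.17. In FTO3C3 that value rests on 0 IgG reads of miR-141-3p, with 0.5 added. For m6A against IgG this pair differed by -0.08 ± 4.85. The first pair differed by 0.21 ± 1.40 for IgG against input, with both signs. For m6A precipitate against input, the difference of -0.35 ± 0.53 between miR-200b-3p and miR-429 had both signs. Between miR-429 and miR-200a-5p it was 0.43 ± 0.82, also with both signs. In all, 21 pairs were compared, and in 16 of them the 3 clones had the same sign; each exact sign-flip p of those is 0.25, the smallest possible, so that none passes a correction over the pairs. In sequence, miR-429 and miR-141-3p differ by U4C, A18G, C19A, C20U and U22G, counted from the 5′ end with miR-429 first.

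The members also differed between IgG precipitate and input. Against input, the IgG precipitates were higher in 2 and lower in 2 of 7 members, against 36.8% higher and 21.8% lower among the 1941 miRNAs tested, with a median log2 fold change of 0.49. Higher were miR-429 (log2 fold change 2.76, SE 0.64, edgeR adjusted p = 5.88e-05, with ratios of 5.07, 0.155 and 125) and miR-200a-5p (2.03, SE 0.54, adjusted p = 0.000473, with ratios of 4.37, 2.32 and 8.05). The log2 ratios of the 3 clones had an SD of 4.83 for miR-429 and 0.90 for miR-200a-5p. For miR-429 the SE and the adjusted p do not show this spread, and its call was lost without FTO3C3 and with DESeq2. Lower were miR-200b-3p (-2.32, SE 0.58, edgeR adjusted p = 0.000183) and miR-141-3p (-2.98, SE 0.69, adjusted p = 5.82e-05). In miR-200b-3p the ratios were 0.400, 0.0557 and 0.281, and without FTO2D4 the adjusted p was 0.0521. The others had log2 fold changes of 0.83 (miR-200b-5p), 0.28 (miR-200c-3p, -0.23 with TMM factors) and -0.08 (miR-141-5p), and were not called. The comparisons with IgG, with input and of IgG with input share libraries, so their values are not independent of each other.

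**Figure D4:**
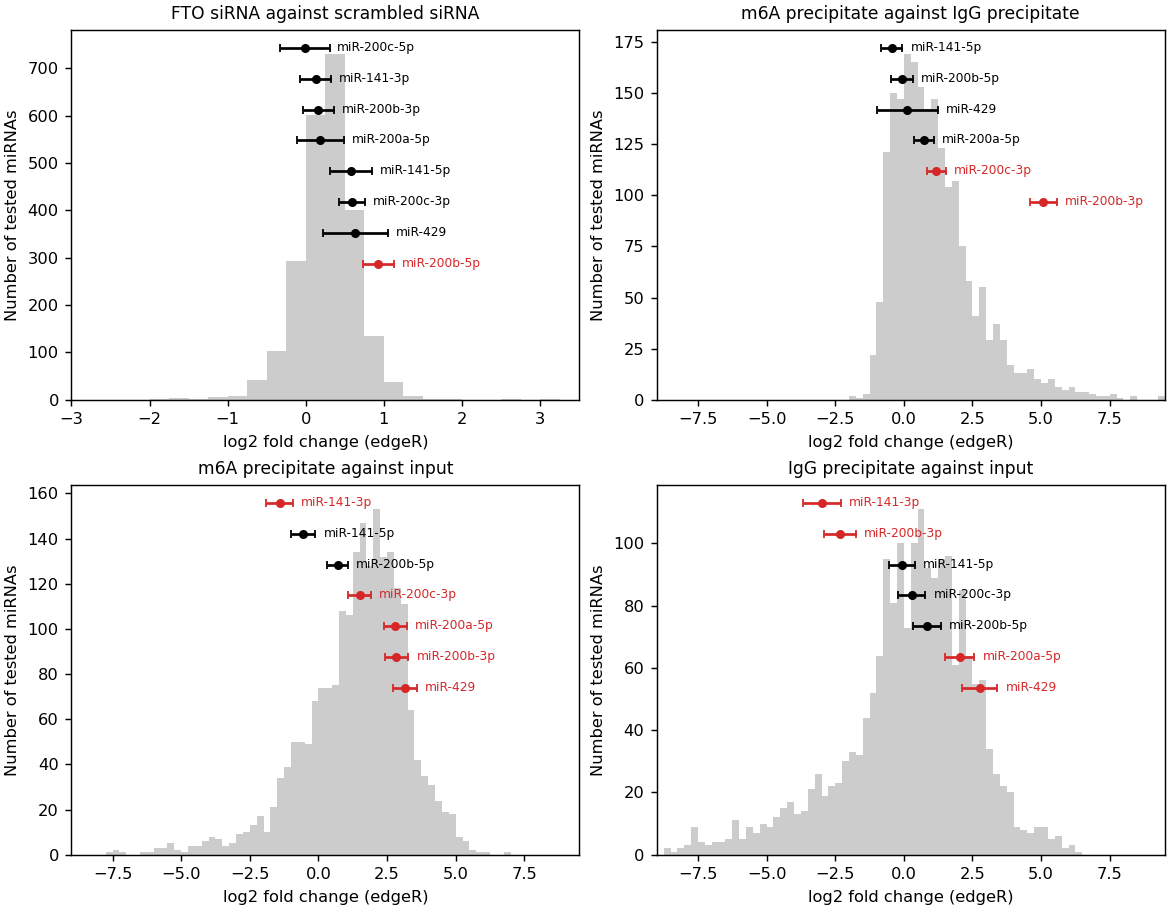
Distribution of the edgeR log2 fold changes of all tested miRNAs (grey bars, number of miRNAs) in the 4 comparisons, with the members as points with their SE at arbitrary heights; red marks an adjusted p under 0.05. For m6A against IgG precipitate miR-200b-3p lies at 5.09, in the upper tail, and the others lie inside the main body; on TMM scaling miR-200c-3p and miR-200b-5p for m6A precipitate against input turn negative (-0.05 and -0.88).

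The balance of the strands was read within each library. In the m6A precipitates the log2 ratio of miR-200b-3p to miR-200b-5p reads was 3.55 ± 0.54, in the inputs 1.47 ± 0.43 and in the IgG precipitates -1.67 ± 0.51. The m6A value exceeded the IgG value by 5.22 ± 0.90 and the input value by 2.08 ± 0.96, in 3 of 3 clones each (exact sign-flip p = 0.25, the smallest possible). For miR-141 the 5p strand prevailed in all 3 kinds of library, with log2 ratios of -2.75 ± 1.06 in the m6A precipitates and -1.77 ± 1.06 in the inputs. The IgG precipitates held 3, 3 and 0 reads of the 3p strand against 61, 60 and 9 of the 5p strand, and no mean ratio is given for them. With scrambled siRNA the miR-141 ratio was 1.84 ± 0.20, so that the 3p strand led there. The m6A value of miR-141 differed from the input by -0.98 ± 1.99, with both signs (exact p = 0.75).

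**Figure D5:**
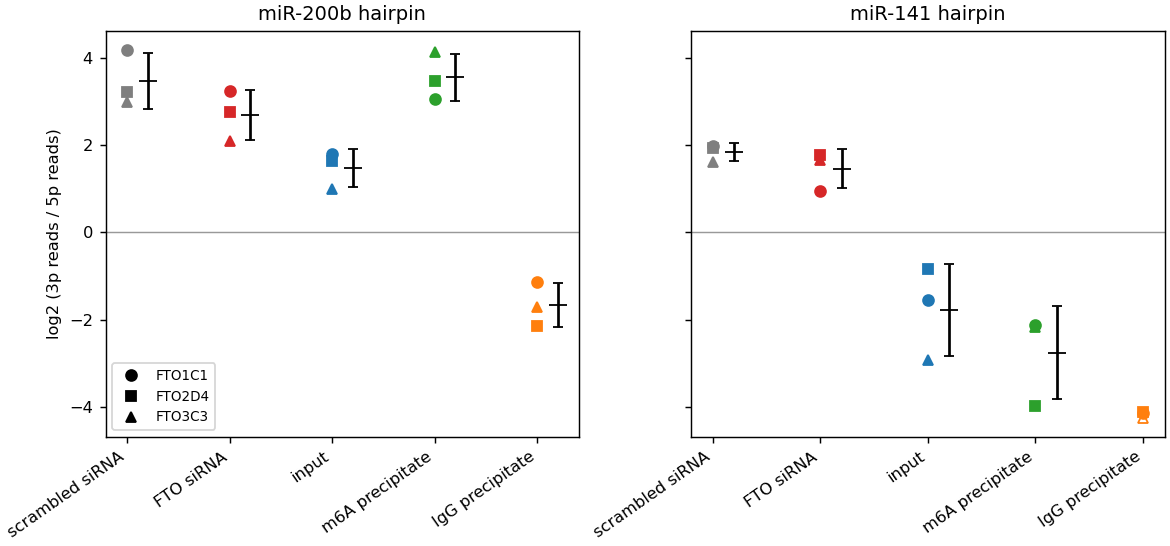
Log2 ratio of 3p to 5p reads of the miR-200b and miR-141 hairpins in each library, with 0.5 added to each count; symbols are clones and bars mean ± SD (n = 3). The open symbol is the IgG library of FTO3C3 with 0 reads of miR-141-3p, whose height is set by the added 0.5, and no mean is drawn for that group. The miR-200b ratio is positive in scrambled siRNA, FTO siRNA, input and m6A libraries and negative in the IgG libraries, and the miR-141 ratio is positive in the knockdown experiment and negative in all libraries of the precipitation experiment.

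Other miRNAs with a link to epithelial cells had calls in both directions. After FTO siRNA, against 4.97% higher and 0.505% lower among all miRNAs, 1 of 14 tested was higher (miR-205-3p, 8.94 ± 2.76 RPM against 3.13 ± 1.06 RPM, edgeR adjusted p = 0.0362) and 1 lower (miR-215-5p, 367 ± 39.8 RPM against 605 ± 39.4 RPM, edgeR adjusted p = 0.0289), with a median log2 fold change of 0.04. The keratinocyte miRNAs miR-203b-3p and miR-203a had values of 0.61 and 0.51 that did not pass (edgeR adjusted p = 0.0859 and 0.149). Against IgG, 7 of 14 were higher in the m6A precipitate and 0 lower (median 1.5), beside 38.6% and 1.27% of all miRNAs; miR-215-5p (6.23), miR-183-5p (5.46), miR-182-5p (3.55) and miR-192-5p (3.37), all edgeR log2 fold changes, led by p. Against input, 7 were higher and 4 lower (median 0.57), beside 66.8% and 10.5% of all, led by miR-215-5p (4.85), miR-34b-5p (3.69), miR-203a (2.77) and miR-96-5p (-2.15). IgG against input gave 2 higher and 9 lower of 13 (median -2.03), beside 36.8% and 21.8% of all, led by miR-192-5p (-5.15), miR-183-5p (-4.39), miR-182-5p (-3.81) and miR-203a (2.81).

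Of 9 miRNAs linked to the epithelial to mesenchymal transition, 1 was higher after FTO siRNA (miR-221-3p, log2 fold change 1.47, edgeR adjusted p = 0.000812) and 1 lower (miR-22-3p, -1.82, adjusted p = 0.000138), while miR-9-5p (-0.55) and miR-21-5p (-0.43) did not pass. In the m6A precipitate 6 were higher than in IgG and 0 lower (median 4.69), beside 38.6% and 1.27% of all, led by miR-103a-3p, miR-22-3p, miR-10b-5p and miR-222-3p. Against input, 2 were higher and 6 lower (median -1.0), beside 66.8% and 10.5% of all, with the smallest p for miR-9-5p (-3.98), miR-21-5p (-3.84), miR-221-3p (-2.55) and miR-155-5p (2.41). IgG against input gave 1 higher and 8 lower (median -5.55), beside 36.8% and 21.8% of all. Of the markers of other cell types, 1 of 12 tested was higher after FTO siRNA and 0 lower (erythroid miR-144-3p, log2 fold change 0.94, edgeR adjusted p = 0.0323), beside 4.97% and 0.505% of all. The other erythroid marker, miR-451a, had a log2 fold change of 0.09 (edgeR adjusted p = 0.846). Of 11 tested, 4 were higher against IgG, led by miR-223-3p (5.20), and 8 against input, led by miR-150-5p (2.55), with 0 lower in both, which is near the 38.6% and 66.8% higher among all. IgG against input gave 2 higher and 3 lower of 9, beside 36.8% and 21.8% of all.

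Over all 15 libraries the members did not share 1 pattern. Among 1783 miRNAs in both experiments with a mean of at least 15 RPM, the log2 RPM of miR-200b-3p correlated most with miR-4535 (Pearson r = 0.96), miR-6730-3p (0.96) and miR-146b-5p (0.96), and with its copy miR-200c-3p at 0.85. Nearest to miR-200c-3p were miR-3671 (0.98), miR-2053 (0.93) and miR-4722-3p (0.93). Nearest to miR-429 were miR-2115-5p (0.92), miR-1199-3p (0.90) and miR-3200-3p (0.89), and its r with miR-200b-3p was -0.08 but with miR-200a-5p 0.82. Nearest to miR-141-3p were miR-101-5p (0.97), miR-96-5p (0.96) and miR-4483 (0.96), and its r with miR-429 was -0.69. These libraries fall into 5 groups and 2 experiments, so the values describe how levels differ between groups and carry no p.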

How the data were processed

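Small RNA of 3 clones was measured in 5 groups of 3 libraries. The authors deposited raw counts, whole numbers of reads for each mature miRNA, in 1 table per experiment (2418 and 2189 miRNAs, lowest totals 22 and 82 reads). Following the Methods, adapters were trimmed with cutadapt (overlap 4 bp, error 20%), and reads of 16 to 28 bases were matched to miRBase release 20, not to a genome. A read meeting the criteria for several miRNAs was assigned to whichever matched it over more bases.

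From these counts, RPM, ratios within clones and edgeR's quasi-likelihood test were computed here (filterByExpr with a minimum count of 10, library size equal to total miRNA reads, clone as block, 6 libraries per fit, Benjamini-Hochberg adjustment over all miRNAs tested, threshold 0.05). The SE of an edgeR log2 fold change is its absolute size divided by the square root of that test's F statistic. Like the p-value, it draws on a spread estimated partly from all tested miRNAs. Pairs of members and of strands were compared within libraries by two-sided exact sign-flip tests. Levels of similar miRNAs were compared on log2(RPM + 1). Sequences and positions are from RefSeq (GRCh38.p14). On simulated counts with 200 changed miRNAs, a 4-fold change was recovered in 97.7% (FTO siRNA, 2418 miRNAs), 79.0% (m6A against IgG, 2189), 93.0% (m6A against input, 2189) and 66.3% (IgG against input, 2189), and a 2-fold change in 67.7%, 1.5%, 7.5% and 1.0%. False calls made up 6.39%, 2.27%, 5.26% and 4.56% of the calls at 4-fold and 9.17%, 10.0%, 11.8% and 0% at 2-fold.

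The clone pairs libraries of the same name. Deviations from the group mean, taken between paired libraries, correlated at 0.189, 0.121 and 0.160 in the knockdown, at 0.012 to 0.037 for m6A and IgG, at -0.071 to -0.028 for m6A and input and at -0.027 to 0.066 for IgG and input. Libraries of a group differed by more than sampling noise (chi-square per degree of freedom 6.25 to 146.1), and all were kept as separate replicates. All 9 family members are named, with, for each 3p member, the 3 most similar miRNAs, and up to 4 examples per list by smallest p. The members, lists (epithelial linked, transition linked, other cell types) and tests were chosen with earlier results of these data known. Alternatives were TMM factors, DESeq2, no filter, no block, totals without the most abundant miRNA, all 9 precipitation libraries in 1 fit, other rule cutoffs and each clone left out. FTO mRNA was not analysed here. The tests ran in R 4.3.3 (DESeq2 1.42.0, edgeR 4.0.16, limma 3.58.1). Python 3.11.15 was used for the rest, with matplotlib 3.10.9, scipy 1.17.1, pandas 2.3.3 and numpy 2.4.6.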

Additional observations from a re-analysis of the deposited data

How the results depend on the processing

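In the knockdown, 1 member was higher: 0 with TMM factors, DESeq2 or no replicate block, 2 with totals without the most abundant miRNA, and 0 to 3 with each clone left out. There DESeq2 gave an adjusted p for miR-200b-3p, miR-200c-3p, miR-141-3p and miR-200b-5p alone. Log2 fold changes turned for miR-200b-3p (-0.13 with TMM and DESeq2, -0.13 to 0.33 with clones left out), miR-141-3p (-0.17 with TMM and DESeq2), miR-200a-5p (-0.10 with TMM, -0.13 to 0.62 with clones left out) and miR-200c-5p (0.027 without the block, -0.28 to 0.32 with clones left out). For m6A against IgG, 2 members were higher and 0 lower; TMM, DESeq2 and totals without the most abundant miRNA gave 1 and 1, and clones left out gave 1 to 2 higher. There miR-429 turned to -0.62 (TMM), -0.21 (DESeq2), -0.96 (no replicate block), -0.51 (totals without the most abundant), -0.34 (9 libraries) and -1.33 to 1.79 with clones left out, miR-200a-5p to -0.023 (TMM) and -0.066 (DESeq2), and miR-200b-5p to 0.0072 without FTO1C1, with a range of -0.42 to 0.21 over clones left out. For m6A against input, members lower were 2 with TMM and DESeq2, 0 with totals without the most abundant and 0 to 1 with clones left out; miR-200c-3p turned to -0.046 and -0.071, and miR-200b-5p to -0.88 and -0.87, with TMM and DESeq2. For IgG against input, members higher were 1 with DESeq2 and 4 with totals without the most abundant, where 1 was lower, and clones left out gave 1 to 2 higher and 1 to 2 lower; miR-200c-3p turned to -0.23 (TMM) and -0.31 (DESeq2), and miR-141-5p to 1.07 (totals without the most abundant) and, with clones left out, -0.44 to 0.19. The cause was not tested, beyond the change of scale that TMM, DESeq2 and the other totals make by construction.

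By the ratio rules, members over 1.5 were 1 when all 3 ratios had to pass, 1 with TMM and 1 to 2 with clones left out, members over 2 were 0 to 1, and members enriched over IgG were 3 at a cutoff of 15 RPM and 1 to 2 with clones left out. At 15 RPM miR-429 is among them, by a mean ratio of 17.5 from 1.11 (FTO1C1), 51.4 (FTO2D4, with 1 IgG read) and 0.161 (FTO3C3). The shares of all miRNAs that pass at these altered settings are not given, so these counts have no background beside them. The family sum became 871 (scrambled siRNA), 1077 (FTO siRNA), 302 (input), 1326 (m6A) and 895 (IgG) RPM with totals without the most abundant miRNA, and 712 (FTO siRNA), 366 (input) and 445 (m6A) RPM with TMM.

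Over all miRNAs, the knockdown calls were 118 higher and 12 lower, 21 and 34 with TMM, 32 and 57 with DESeq2, 37 and 4 without the replicate block, 87 and 39 without FTO2D4, 191 and 10 without FTO3C3, and 0 and 0 by edgeR without FTO1C1, with 327 at an unadjusted p under 0.05. For m6A against IgG they were 792 and 26, 453 and 302 with TMM, 363 and 254 with DESeq2 and 446 and 257 with totals without the most abundant. For m6A against input, 1452 and 229 became 575 and 614 with TMM and 486 and 588 with DESeq2. For IgG against input, 714 and 423 became 559 and 586 with TMM, 442 and 540 with DESeq2 and 1231 and 273 with totals without the most abundant. Depth limits miR-200a-3p and miR-141-3p to few reads. The same holds for the ratios to IgG of miR-200b-3p in FTO2D4 and FTO3C3 (3 IgG reads each) and of miR-429 in FTO2D4 (1 IgG read).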
